A study of Mus musculus with 12 samples.

Results

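The Kruppel-like factors are a family of transcription factors that bind GC-rich and CACCC-type DNA through zinc fingers at the end of the protein. The 9 genes described here, Klf2, Klf3, Klf4, Klf5, Klf6, Klf9, Klf10, Klf13 and Klf15, were taken by gene symbol from a table of 19036 genes, and each symbol had 1 row. Levels are FPKM, the authors' fragment counts set against transcript length and library size, so they can be compared between genes per length. The samples were kidneys of mice of the inbred strain C57BL/6, with 4 libraries in each of 3 groups. The combination group, labelled Cisplatin+84-B10, received the compound 84-B10 at 15 mg/kg, starting 48 h before cisplatin, and then cisplatin at 25 mg/kg into the peritoneum. The cisplatin group received cisplatin at the same dose, and the vehicle group received saline. Kidneys were taken 72 h after the injection. Cisplatin, a platinum drug used against tumours, is toxic to the kidney tubule. Whether the cisplatin group was also pretreated is stated differently by different labels, and grouping followed the treatment label of each library. No group with 84-B10 alone was analysed here, and the sources used here do not give the animals' age or sex.

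Members of the family share their DNA contacts and differ in the rest of the protein. Some mainly activate transcription (Klf2, Klf4, Klf5, Klf6, Klf15), while others mainly repress it, Klf3 by binding the corepressor CtBP and Klf9, Klf10 and Klf13 by binding Sin3A. In the kidney, Klf2 is known from the endothelium of the glomerulus, Klf4 and Klf15 from the podocyte, the filtering cell of the glomerulus, Klf5 from the collecting duct, and Klf6 from the injured tubule. Klf9 and Klf15 are known targets of the glucocorticoid receptor, and Klf10 was found as a gene induced early by transforming growth factor beta.

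Promoter sequences of 4 of the genes are shown because these genes stand for the different patterns below: Klf6 and Klf4 were much higher in injured kidneys, Klf2 was moderately higher, and Klf15 was lower. Each is the run of 250 bases before the gene's start in RefSeq's annotation of mouse build GRCm38.p6, read 5′ to 3′ on the gene's strand. RefSeq's table gave a promoter for 7 of the 9 genes. Capitals mark matches, on either strand, to a Mef2 box (CTANNNNTAG), a CACCC box (CACCC), an E-box (CACGTG) or a CCAAT box (CCAAT), a choice of motifs made after the results were known. The Klf6 promoter lies on the plus strand at chr13:5861239-5861488, the Klf4 promoter on the minus strand at chr4:55532476-55532725, the Klf2 promoter on the plus strand at chr8:72318812-72319061, and the Klf15 promoter on the plus strand at chr6:90462326-90462575.
Klf6: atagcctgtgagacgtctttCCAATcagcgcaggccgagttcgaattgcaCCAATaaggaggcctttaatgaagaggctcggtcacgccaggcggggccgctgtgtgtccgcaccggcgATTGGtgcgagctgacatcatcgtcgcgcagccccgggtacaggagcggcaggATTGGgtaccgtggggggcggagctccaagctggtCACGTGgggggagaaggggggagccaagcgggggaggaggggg
Klf4: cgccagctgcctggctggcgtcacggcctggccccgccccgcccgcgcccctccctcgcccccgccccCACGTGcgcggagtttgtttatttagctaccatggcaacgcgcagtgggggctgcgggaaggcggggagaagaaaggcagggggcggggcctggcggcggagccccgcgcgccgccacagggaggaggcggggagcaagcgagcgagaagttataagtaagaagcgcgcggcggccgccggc
Klf2: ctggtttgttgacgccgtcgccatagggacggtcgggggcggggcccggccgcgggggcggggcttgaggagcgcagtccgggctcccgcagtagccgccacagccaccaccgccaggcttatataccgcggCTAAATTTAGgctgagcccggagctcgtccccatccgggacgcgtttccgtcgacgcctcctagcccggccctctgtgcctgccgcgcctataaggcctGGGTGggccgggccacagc
Klf15: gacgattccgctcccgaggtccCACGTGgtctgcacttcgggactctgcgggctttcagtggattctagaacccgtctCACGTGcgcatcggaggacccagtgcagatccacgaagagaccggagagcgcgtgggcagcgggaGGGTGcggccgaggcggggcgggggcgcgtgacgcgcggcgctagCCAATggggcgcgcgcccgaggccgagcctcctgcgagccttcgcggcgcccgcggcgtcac

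The Klf2 window held a Mef2 box 118 bases before the start, the site type through which the kinase Erk5 and Mef2 proteins are known to drive Klf2, and a CACCC box 19 bases before it. A Mef2 box was present in 3.2% of the 32851 promoters of the same length in RefSeq's table, and Klf2 was the member with a match among the 7. The Klf6 window held 4 CCAAT boxes, at 230, 200, 131 and 78 bases before the start, and an E-box at 43 bases. CCAAT boxes were found in 33.8% of all promoters and E-boxes in 6.02%. The Klf15 window held E-boxes at 228 and 172 bases, a CACCC box at 107 bases and a CCAAT box at 62 bases, and the Klf4 window held an E-box at 182 bases. CACCC boxes, the kind of site that the family itself binds, were found in 52.0% of all promoters. The windows had a GC content of 64.8% for Klf6, 74.0% for Klf4, 71.2% for Klf2 and 72.0% for Klf15, against a median of 52.4% over all promoters. A match of letters is a description of the window and says nothing about which factor bound there.

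Across the series, the named columns of estimated counts summed to 17.47 to 18.17 M in the 4 combination libraries, 17.74 to 18.15 M in 2 cisplatin libraries and 15.76 to 16.52 M in the 4 vehicle libraries. The other 2 cisplatin libraries had no count column that could be assigned, so the depth behind their FPKM is unknown. Kidney identity was clear from the markers: the summed level of 8 proximal tubule markers was 1501 to 2888 FPKM in combination kidneys, 1592 to 2861 FPKM in cisplatin kidneys and 10120 to 10490 FPKM in vehicle kidneys. In both comparisons with vehicle 8 of the 8 fell, where 21.8% of all genes fell with cisplatin and 22.6% with the combination. The 4 markers of the thick ascending limb summed to 82.01 to 149.1 FPKM, 162.3 to 385.9 FPKM and 1142 to 1246 FPKM in the same order of groups, and those of the distal convoluted tubule to 159.5 to 215.5 FPKM, 92.65 to 217.3 FPKM and 371.1 to 518.0 FPKM. In these bulk samples, fewer cells of a type and less RNA per cell cannot be told apart. Against vehicle, a large share of all genes passed the test described next, so counts of members are given beside that share. The median log2 difference of all genes tested was 0.26 in cisplatin against vehicle and 0.26 in combination against vehicle, and scaling by the median of ratios to a common reference shifted values by 0.28 and 0.29. A small positive difference of a single gene is therefore close to what the typical gene showed.

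Cisplatin against vehicle asks which of these factors differ in the injured kidney. Klf6, Klf5, Klf4 and Klf10 rose most, Klf13, Klf3 and Klf2 rose moderately, Klf9 differed little, and Klf15 fell to 35.4% of its vehicle mean. Differences were tested on log2(FPKM + 1) with limma over 12428 genes, with an adjusted p (Benjamini-Hochberg) under 0.05 as the threshold for passing. By that rule 8 of the 9 members passed as higher and 1 as lower in cisplatin kidneys, where 56.3% of all genes tested passed as higher and 21.8% as lower. In combination against vehicle, 7 members passed as higher and 1 as lower, where 56.6% of all genes passed as higher and 22.6% as lower. In cisplatin against vehicle the libraries of 7 members lay wholly above and those of 1 wholly below, as did 52% and 19.6% of all genes. In combination against vehicle they lay so for 7 and 1 members, against 53.9% and 20.9% of all genes. With so large a share of all genes passing, the size of the single differences is given beside the calls. Among the fold changes of all genes tested in cisplatin against vehicle, Klf6 lay above 99.2% of genes, Klf5 above 98.4%, Klf4 above 95.8% and Klf10 above 94.2%. Klf15 lay above 2.31%. Klf13, Klf3, Klf2 and Klf9 lay above 79.6%, 72.9%, 65.4% and 48.4% of genes. Both comparisons share the vehicle libraries, so their values are given side by side and not as independent results.

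**Figure D1:**
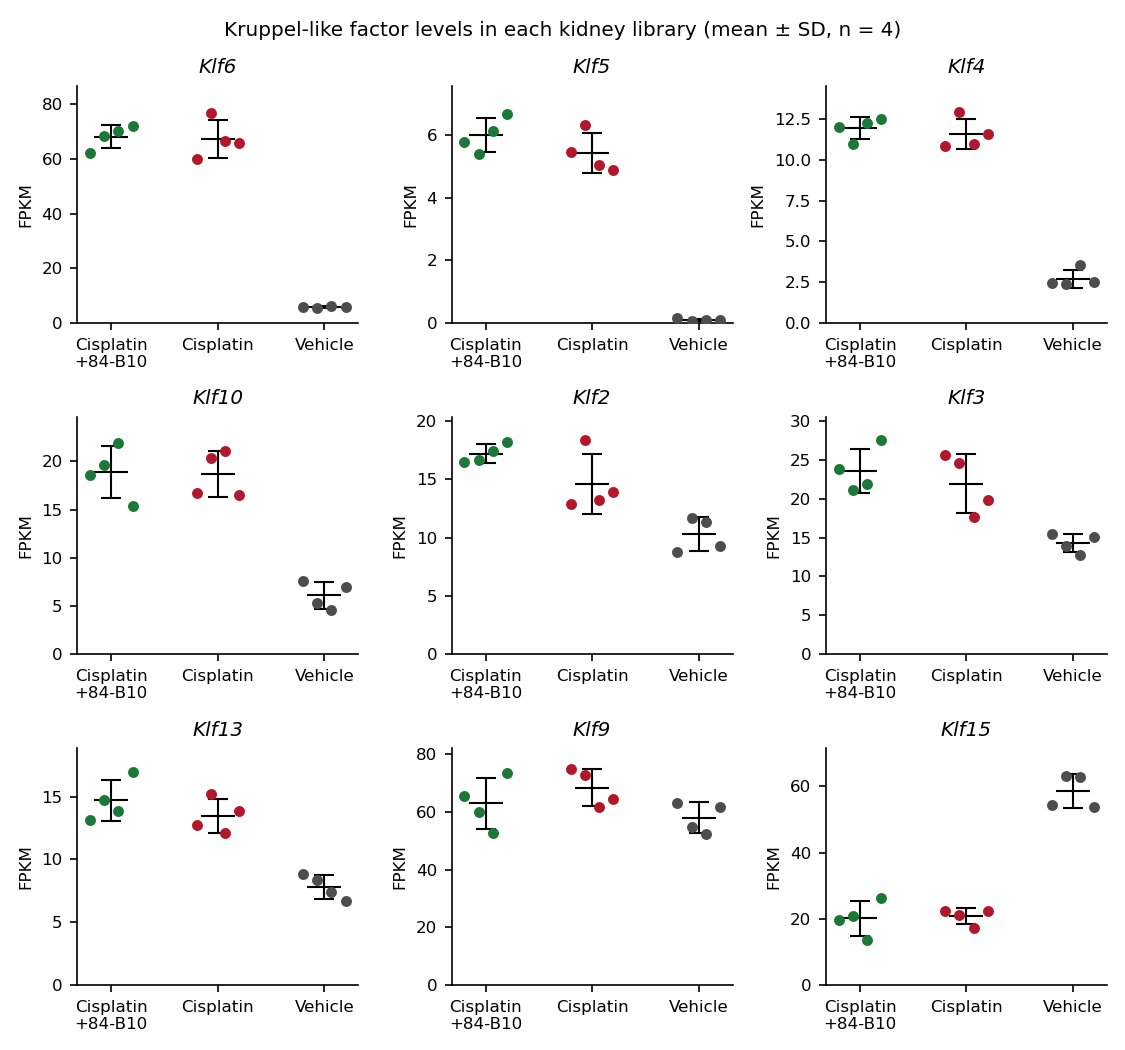
Level of each of the 9 genes in FPKM (y axes, linear and from 0) in every library of the 3 groups; points are libraries, and the bar shows the mean ± SD (n = 4). Klf6, Klf5, Klf4 and Klf10 sit far higher in combination and cisplatin libraries than in vehicle libraries, Klf15 sits lower, and Klf9 overlaps between all groups.

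Klf6 (NCBI gene 23849), a zinc finger activator that responds early to injury in many tissues, had 62.1, 68.4, 70.2 and 72.0 FPKM in combination kidneys, 60.2, 76.7, 66.7 and 65.9 FPKM in cisplatin kidneys, and 5.77, 5.40, 6.27 and 5.91 FPKM in vehicle kidneys. Every library given cisplatin lay far above every vehicle library, and the combination and cisplatin libraries overlapped. The mean was 68.2 ± 4.31 FPKM in combination kidneys, 67.3 ± 6.87 FPKM in cisplatin kidneys and 5.84 ± 0.360 FPKM in vehicle kidneys (SD, n = 4 each), so that the cisplatin mean was 11.5 times the vehicle mean. On the log2(FPKM + 1) scale Klf6 rose by 3.32 with a standard error of 0.072 in cisplatin against vehicle (limma, adjusted p = 2.32e-13). The combination value was 3.34 against vehicle (limma, adjusted p = 2.08e-13).

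Klf5 (NCBI gene 12224), which in epithelia supports proliferation and in the kidney is known from the collecting duct, was nearly silent in vehicle kidneys. It had 5.78, 5.41, 6.14 and 6.68 FPKM in combination kidneys, 5.45, 6.34, 5.04 and 4.89 FPKM in cisplatin kidneys, and 0.15, 0.07, 0.11 and 0.11 FPKM in vehicle kidneys. The groups with cisplatin did not overlap with vehicle. Klf5 passed the filter on low values (at least 1 FPKM in at least 4 libraries) only through the libraries with cisplatin. The vehicle values rested on 4, 2, 3 and 3 estimated counts, which sum to 12, while 2 cisplatin libraries with a count column summed to 299 and the 4 combination libraries to 720. Per total count this was a ratio of 44.7 for cisplatin over vehicle (exact 95% interval 25.2 to 87.5) and of 54.0 for combination over vehicle (30.7 to 105.0), intervals that cover counting error only. The fitted difference of 2.53 on the log2(FPKM + 1) scale (limma, adjusted p = 6.76e-12) understates this ratio because of the pseudocount.

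Klf4 (NCBI gene 16600), a factor of epithelial differentiation that also acts in endothelium and podocytes, had 12.0, 10.97, 12.2 and 12.5 FPKM in combination kidneys, 10.9, 12.9, 10.97 and 11.6 FPKM in cisplatin kidneys, and 2.42, 2.41, 3.55 and 2.49 FPKM in vehicle kidneys. The lowest library with cisplatin was still far above the highest vehicle library, which was number 3. The cisplatin mean was 4.26 times and the combination mean 4.39 times the vehicle mean. The log2 differences were 1.77 with a standard error of 0.091 for cisplatin (limma, adjusted p = 1.01e-09) and 1.81 for combination (limma, adjusted p = 7.00e-10), each against vehicle.

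Klf10 (NCBI gene 21847), a repressor induced early by transforming growth factor beta, had 18.6, 19.6, 21.9 and 15.4 FPKM in combination kidneys, 16.8, 20.3, 21.1 and 16.5 FPKM in cisplatin kidneys, and 7.62, 5.25, 4.55 and 6.92 FPKM in vehicle kidneys. Again no library with cisplatin reached down to the vehicle range. Klf10 rose by 1.49 on the log2 scale with a standard error of 0.14 in cisplatin against vehicle (limma, adjusted p = 3.66e-07) and by 1.5 in combination against vehicle (limma, adjusted p = 3.00e-07). The cisplatin mean was 3.07 times the vehicle mean.

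Klf13 (NCBI gene 50794), a repressor and activator known from lymphocytes and heart, had 13.2, 14.8, 13.9 and 17.0 FPKM in combination kidneys, 12.7, 15.2, 12.1 and 13.9 FPKM in cisplatin kidneys, and 8.82, 8.38, 7.41 and 6.65 FPKM in vehicle kidneys. It did not overlap with vehicle in either group, and rose by 0.72 on the log2 scale in cisplatin against vehicle (limma, adjusted p = 1.08e-05) and by 0.83 in combination against vehicle (limma, adjusted p = 2.33e-06). Klf3 (NCBI gene 16599), the CtBP-binding repressor, had 23.8, 21.2, 21.9 and 27.6 FPKM in combination kidneys, 25.7, 24.7, 17.7 and 19.8 FPKM in cisplatin kidneys, and 15.4, 13.9, 12.8 and 15.1 FPKM in vehicle kidneys. Its cisplatin libraries spread widely, yet the lowest, number 3, stayed above every vehicle library. Klf3 rose by 0.57 in cisplatin (limma, adjusted p = 0.000375) and by 0.68 in combination (limma, adjusted p = 8.17e-05), each against vehicle on the log2 scale. The cisplatin call for Klf3 was lost with edgeR (0.18, adjusted p = 0.11) and with DESeq2 (0.17, adjusted p = 0.18) on the counts of 10 libraries.

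Klf2 (NCBI gene 16598), the flow-responsive factor of quiescent endothelium, had 16.5, 16.7, 17.4 and 18.2 FPKM in combination kidneys, 12.9, 18.4, 13.2 and 13.9 FPKM in cisplatin kidneys, and 8.80, 11.7, 11.4 and 9.32 FPKM in vehicle kidneys. The combination libraries were the most even, with a coefficient of variation of 4.64%, while cisplatin library 2 stood above the other 3 of its group. Klf2 rose by 0.46 in cisplatin against vehicle (limma, adjusted p = 0.00139) and by 0.70 in combination against vehicle (limma, adjusted p = 4.10e-05) on the log2 scale. The cisplatin call, but not the combination call, was lost under median-of-ratios scaling (0.19, adjusted p = 0.112), quantile normalization (0.16, adjusted p = 0.193), edgeR (0.13, adjusted p = 0.293) and DESeq2 (0.12, adjusted p = 0.436). The 10 endothelial markers summed to 152.9 to 180.4 FPKM in combination kidneys, 138.0 to 186.6 FPKM in cisplatin kidneys and 139.1 to 190.3 FPKM in vehicle kidneys, ranges that overlap, and none was at 0. Of these markers 3 rose and 4 fell in cisplatin against vehicle, where 56.3% of all genes rose and 21.8% fell. Their median log2 difference was 0.01.

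Klf9 (NCBI gene 16601), a glucocorticoid and thyroid hormone responsive repressor, was among the most abundant members in every group. It had 65.4, 60.1, 52.6 and 73.4 FPKM in combination kidneys, 74.9, 72.6, 61.7 and 64.4 FPKM in cisplatin kidneys, and 63.2, 54.8, 52.2 and 61.5 FPKM in vehicle kidneys. All 3 groups overlapped. The log2 difference of 0.24 in cisplatin against vehicle passed the threshold (limma, adjusted p = 0.0422) and lay just under the median of all genes, while the 0.11 in combination against vehicle did not (limma, adjusted p = 0.315). The direction of both turned under other scalings or count models. Cisplatin against vehicle was -0.05 with median-of-ratios scaling, and -0.14 with edgeR and -0.16 with DESeq2 on the counts of 10 libraries. Those 10 lack cisplatin libraries 1 and 2, which had the highest Klf9 levels of their group. The FPKM of the same 10 libraries gave 0.12 (limma, adjusted p = 0.345). The cisplatin call was also lost when vehicle library 2 (adjusted p = 0.099), vehicle library 3 (0.12), cisplatin library 1 (0.109), cisplatin library 2 (0.102) or combination library 2 (0.0502) was left out of limma, with log2 differences of 0.21, 0.19, 0.19, 0.21 and 0.24.

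Klf15 (NCBI gene 66277), an activator tied to amino acid and lipid metabolism and to podocyte differentiation, was the member that fell. It had 19.8, 21.0, 13.6 and 26.1 FPKM in combination kidneys, 22.3, 21.1, 17.2 and 22.3 FPKM in cisplatin kidneys, and 54.5, 63.1, 63.0 and 53.6 FPKM in vehicle kidneys. The highest library with cisplatin was below every vehicle library by a wide margin. The mean was 20.1 ± 5.17 FPKM in combination kidneys and 20.7 ± 2.39 FPKM in cisplatin kidneys, against 58.6 ± 5.21 FPKM in vehicle kidneys (SD, n = 4 each). Klf15 fell by 1.46 on the log2 scale with a standard error of 0.15 in cisplatin against vehicle (limma, adjusted p = 8.77e-07) and by 1.53 in combination against vehicle (limma, adjusted p = 4.93e-07). Podocyte markers summed to 64.06 to 99.78 FPKM in combination kidneys, 54.47 to 87.78 FPKM in cisplatin kidneys and 80.59 to 96.35 FPKM in vehicle kidneys, with none at 0 throughout. In cisplatin against vehicle 3 of 7 tested markers were lower and 4 did not pass, where 21.8% of all genes fell. The proximal tubule markers given above fell with Klf15. The part of either cell type in the lower Klf15 level was not tested.

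**Figure D2:**
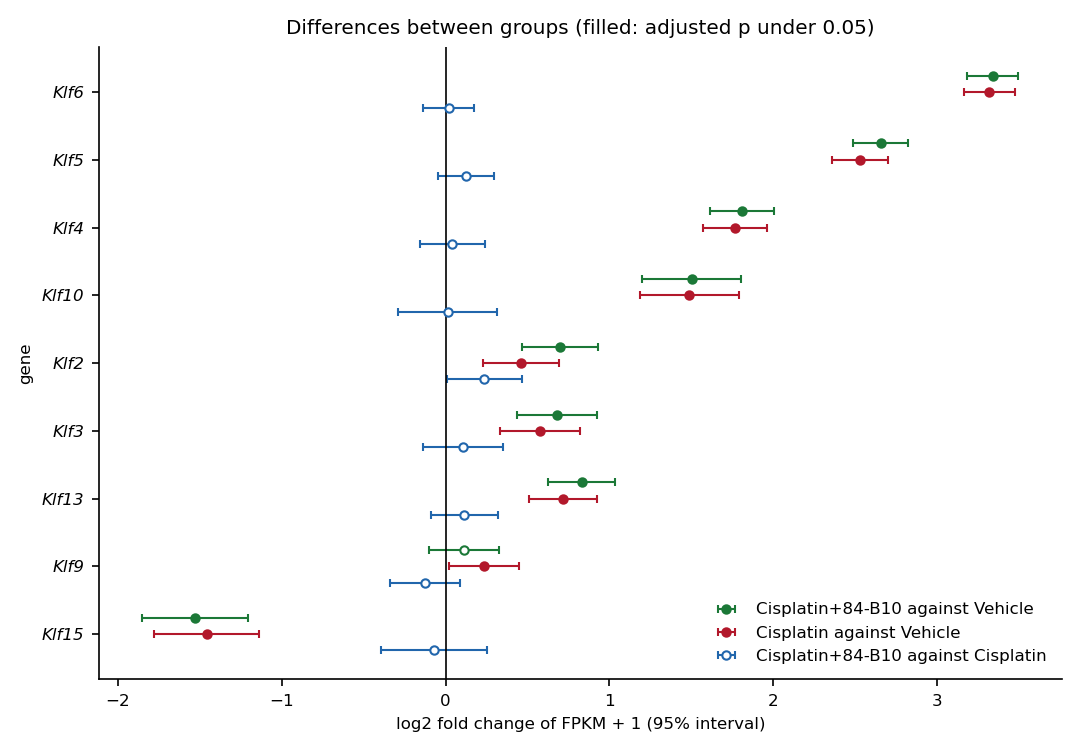
Difference of log2(FPKM + 1) with its 95% interval (x axis) for the 9 genes (y axis) in the 3 comparisons; filled points passed at an adjusted p under 0.05 in limma. The 2 comparisons with vehicle lie close together for each gene, from 3.34 and 3.32 for Klf6 to -1.53 and -1.46 for Klf15, and no difference between combination and cisplatin is filled.

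The order of the members by level changed with the treatment. In combination kidneys Klf6 and Klf9 led with means of 68.2 and 62.9 FPKM, each above the other in 2 of 4 libraries. They were followed, with no overlap, by Klf3 (23.6 FPKM), Klf15 (20.1 FPKM), Klf10 (18.9 FPKM), Klf2 (17.2 FPKM) and Klf13 (14.7 FPKM), whose neighbours overlapped, and then by Klf4 and Klf5, each set apart. In cisplatin kidneys Klf9 and Klf6 led with 68.4 and 67.3 FPKM and overlapped, and from Klf3 down to Klf4 each gene's range overlapped with the next, while Klf5 was set apart at the bottom. In vehicle kidneys Klf15 and Klf9 led with means of 58.6 and 57.9 FPKM and overlapping ranges, Klf3 stood alone, and Klf2, Klf13, Klf10 and Klf6 formed a chain of overlapping neighbours above Klf4 and Klf5.

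The summed level of the 9 genes was 244 ± 17.3 FPKM in combination kidneys, 242 ± 18.5 FPKM in cisplatin kidneys and 164 ± 2.65 FPKM in vehicle kidneys (SD, n = 4 each). Klf6 made up 26.2% to 30.6% of this sum in combination kidneys, 24.9% to 29.5% in cisplatin kidneys and 3.27% to 3.89% in vehicle kidneys. Klf15 made up 5.89% to 9.72% in combination kidneys, 7.63% to 9.56% in cisplatin kidneys and 32.7% to 39.1% in vehicle kidneys. The place that Klf15 held beside Klf9 in vehicle kidneys was thus held by Klf6 in both groups with cisplatin. Shares of a sum do not change with a scaling of whole libraries. The share of Klf9 was 22.9% to 27.6% in combination kidneys, 27.1% to 31.0% in cisplatin kidneys and 32.4% to 38.1% in vehicle kidneys. Klf5 made up 2.27% to 2.67% in combination kidneys, 2.10% to 2.36% in cisplatin kidneys and 0.0424% to 0.0900% in vehicle kidneys.

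**Figure D3:**
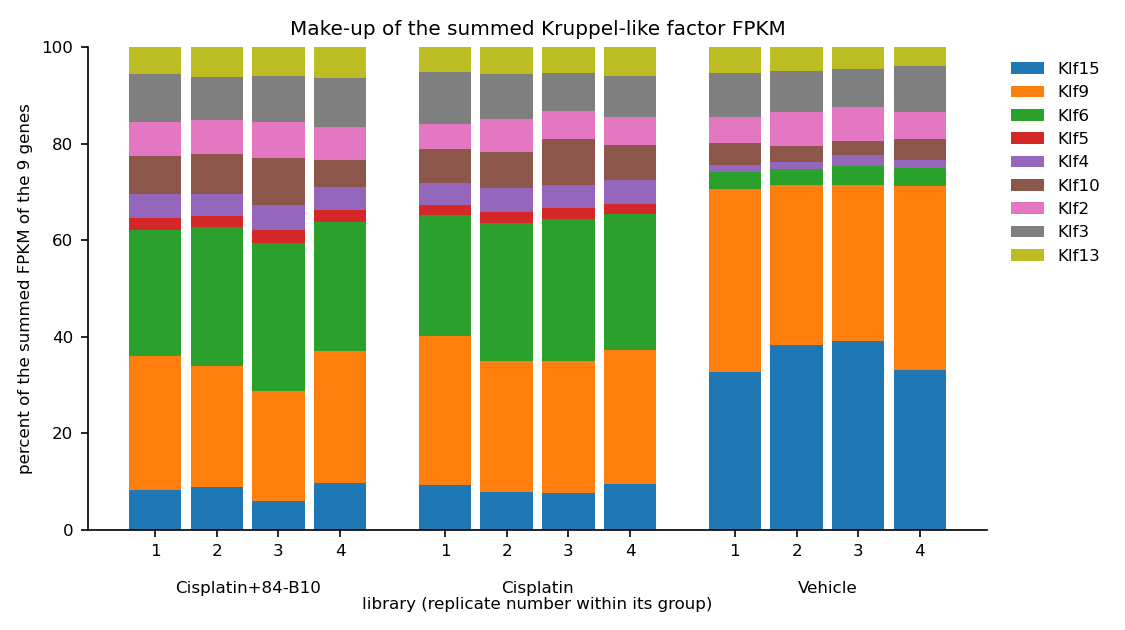
Make-up of the summed FPKM of the 9 genes in percent (y axis) in each library (x axis, numbered within its group). Klf6 fills 24.9% to 30.6% of the sum in the 8 libraries with cisplatin and at most 3.89% in vehicle libraries, where Klf15 fills 32.7% to 39.1%.

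The comparison of combination with cisplatin asks whether 84-B10 moved any of these factors in kidneys given cisplatin. None of the 9 passed, where 2.21% of all genes tested did, and neither edgeR nor DESeq2 on the counts of 10 libraries passed any. At an unadjusted p under 0.05, 1 of the 9 passed in limma, where 14.8% of all genes did. That gene was Klf2, with a log2 difference of 0.24 (95% interval 0.01 to 0.47; limma, adjusted p = 0.326), and its combination and cisplatin libraries overlapped through cisplatin library 2. Every other member overlapped between the 2 groups as well, where 8.24% of all genes did not overlap.

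The intervals bound what a difference could be on the log2(FPKM + 1) scale. For Klf6 the difference of combination minus cisplatin was 0.02, with a 95% interval of -0.14 to 0.18, and for Klf4 it was 0.04, with an interval of -0.15 to 0.24. Klf5 had 0.13 (-0.04 to 0.29) and Klf13 had 0.12 (-0.09 to 0.32). Klf3 had 0.11 (-0.14 to 0.35), and Klf10 had 0.01 (-0.29 to 0.31). Klf9 had -0.12 (-0.34 to 0.09), and Klf15 had -0.07 (-0.39 to 0.25), the widest interval of the 9. Among combination libraries, number 3 was lowest and number 4 highest for both Klf9 and Klf15, while for Klf10 number 3 was highest and number 4 lowest. These intervals do not show that the groups are alike, but each excludes a difference as large as 0.5 in either direction.

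**Figure D4:**
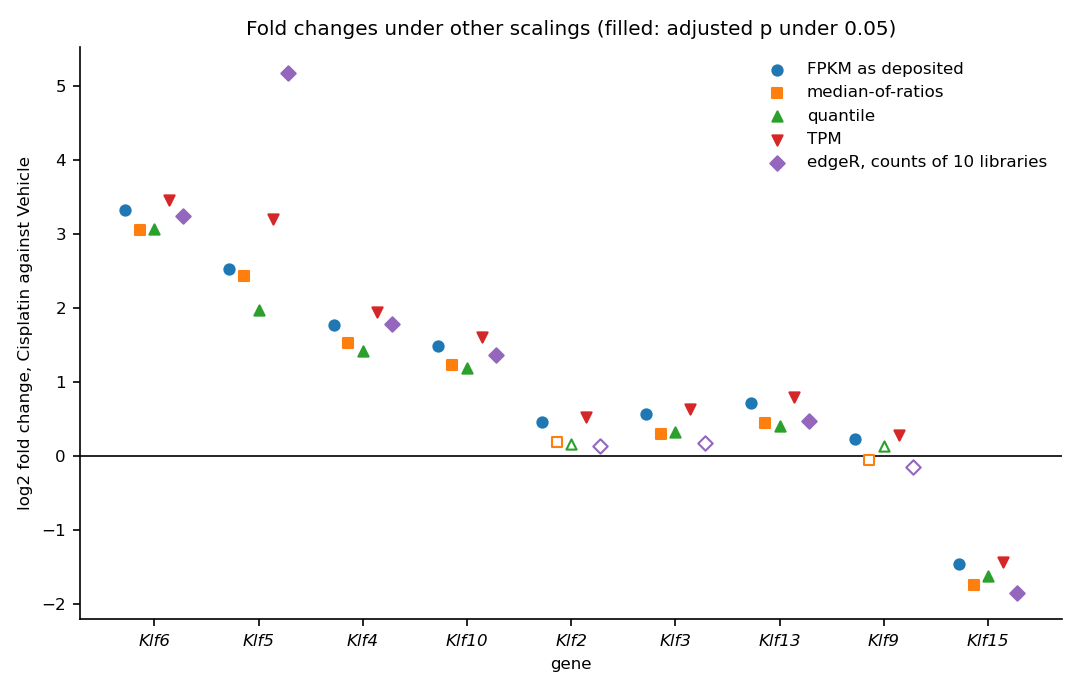
Difference of log2 level between cisplatin and vehicle (y axis) for each gene (x axis) with FPKM as deposited, after median-of-ratios, quantile or TPM scaling, and with edgeR on the estimated counts of 10 libraries; filled symbols passed at an adjusted p under 0.05. Klf6, Klf5, Klf4, Klf10, Klf13 and Klf15 are filled throughout, whereas Klf2 and Klf3 lose the call in some and Klf9 runs from 0.24 with FPKM to -0.14 with edgeR.

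Scaling mattered for the smaller differences. With FPKM as deposited, 6999 genes passed as higher and 2711 as lower in cisplatin against vehicle, while after median-of-ratios scaling 4618 were higher and 4602 lower. For Klf6, cisplatin against vehicle lay between 3.05 and 3.5 over 24 alternative analyses, for Klf4 between 1.42 and 2.07, for Klf10 between 1.19 and 1.62, for Klf13 between 0.41 and 0.80, and for Klf15 between -1.86 and -1.38. Each of these 5 genes passed in every one of the 24 analyses. Klf5 had 23 analyses, since it was filtered out by a mean FPKM of at least 5, and lay between 1.97 and 5.21, the higher values coming from the count models without a pseudocount of 1.

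The 8 other Klf genes in the table gave the same mixed picture. Of these, 5 passed the filter on low values, and in cisplatin against vehicle 3 rose, 1 fell and 1 did not pass, where 56.3% of all genes rose and 21.8% fell. Their median log2 difference was 0.77, against 0.26 over all genes. Klf11, a close relative of Klf10 that also responds to transforming growth factor beta, had 5.98, 7.29, 7.40 and 5.55 FPKM in combination kidneys, 6.25, 6.57, 6.61 and 5.49 FPKM in cisplatin kidneys, and 2.06, 1.73, 2.01 and 3.18 FPKM in vehicle kidneys. It rose by 1.17 on the log2 scale in cisplatin against vehicle (limma, adjusted p = 1.08e-06), with no overlap. Klf7 rose by 0.83 (limma, adjusted p = 2.90e-06) and Klf16 by 0.77 (limma, adjusted p = 4.22e-06).

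Klf12, a CtBP-binding repressor known from the collecting duct, had 0.73, 0.41, 0.53 and 0.73 FPKM in combination kidneys, 0.91, 0.77, 0.49 and 0.71 FPKM in cisplatin kidneys, and 2.18, 1.51, 1.87 and 2.22 FPKM in vehicle kidneys. It fell by 0.77 on the log2 scale in cisplatin against vehicle (limma, adjusted p = 1.37e-05) and passed the filter only through its vehicle libraries. Klf5, known from the same segment, was higher. The 6 markers of the collecting duct's principal cells summed to 485.9 to 718.7 FPKM in combination kidneys, 398.6 to 494.6 FPKM in cisplatin kidneys and 324.2 to 371.3 FPKM in vehicle kidneys. Aqp2 was the largest part of that sum, with means of 319.2, 233.7 and 108.3 FPKM in the same order of groups. Of the 6 markers 3 rose and 3 fell in cisplatin against vehicle, where 56.3% of all genes rose and 21.8% fell. The higher sum is therefore not a rise shared by all of them. None of the markers was at 0, and their part in either gene's difference was not tested. Klf1, the erythroid factor, had a log2 difference of -0.09 in cisplatin against vehicle that did not pass (limma, adjusted p = 0.535). It fell by 0.34 in combination against vehicle, with overlapping groups (limma, adjusted p = 0.0222). Klf8 lay at 0.11 to 0.26 FPKM over all libraries, and Klf14 and Klf17 reached at most 0.04 FPKM in any library.

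The Sp factors, the nearest relatives of the family, bind similar GC-rich sites. Among the 9 listed, 6 were tested, and in cisplatin against vehicle 5 rose and 1 fell, where 56.3% of all genes rose and 21.8% fell, with a median log2 difference of 0.44 against 0.26 over all genes. Sp4 and Sp6 did not reach 1 FPKM in all 4 vehicle libraries and entered the test through the libraries with cisplatin. Sp6, known from skin and tooth epithelium, had 2.2, 3.01, 2.52 and 2.77 FPKM in combination kidneys, 2.46, 2.61, 2.85 and 2.40 FPKM in cisplatin kidneys, and 0.50, 0.42, 0.22 and 0.33 FPKM in vehicle kidneys, and rose by 1.39 on the log2 scale (limma, adjusted p = 6.28e-09). Sp5, a target of Wnt signalling, fell by 0.86 (limma, adjusted p = 2.16e-06). The broadly expressed Sp1, Sp2 and Sp3 rose by 0.46, 0.50 and 0.43, and Sp4 by 0.29, and each of these 4 calls was lost under at least 1 of the other scalings or count models. Sp4 turned to -0.13 after quantile normalization. None of the 5 Klf or 6 Sp genes passed in combination against cisplatin, where 2.21% of all genes did.

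Genes that act before or after these factors were taken from lists of known relations. On the route that raises Klf2 and Klf4 in endothelium, from the kinases Mekk2, Mek5 and Erk5 to Mef2, 6 genes were tested, of which 5 rose and 1 fell in cisplatin against vehicle, where 56.3% of all genes rose and 21.8% fell. Their median log2 difference was 0.63, against 0.26 over all genes. Mapk7, which encodes Erk5, had 8.05, 7.73, 8.39 and 8.15 FPKM in combination kidneys, 5.93, 7.33, 7.71 and 6.67 FPKM in cisplatin kidneys, and 2.91, 3.04, 2.84 and 2.51 FPKM in vehicle kidneys. It rose by 1.04 in cisplatin against vehicle on the log2 scale (limma, adjusted p = 1.98e-08). Every combination library lay above every cisplatin library for Mapk7, yet the log2 difference of 0.20 did not pass (limma, adjusted p = 0.207). Mef2d rose by 0.66 and Map3k2, which encodes Mekk2, by 0.64 in cisplatin against vehicle. Map2k5, which encodes Mek5, was the gene that fell, with a mean of 9.03 FPKM in cisplatin kidneys against 11.7 FPKM in vehicle kidneys.

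Among 14 corepressors, acetyltransferases and ubiquitin ligases that act on Kruppel-like proteins, 9 rose, 2 fell and 3 did not pass in cisplatin against vehicle, where 56.3% of all genes rose and 21.8% fell, and their median of 0.26 equalled that of all genes to 2 decimals. Fbxw7, the recognition part of a ligase that marks Klf2 and Klf5 for breakdown, rose by 1.31 (limma, adjusted p = 1.99e-08), and Smurf1, a ligase for Klf2, by 1.05 (limma, adjusted p = 5.68e-09). The 2 genes that fell also encode ubiquitin ligases. Wwp1 had a mean of 23.0 FPKM in cisplatin and 37.2 FPKM in vehicle kidneys, and Smurf2 had 9.14 and 10.4 FPKM. Ctbp2, one of the corepressors that Klf3 recruits, rose by 0.79 (limma, adjusted p = 2.76e-08). The deacetylase gene Hdac2 had a log2 difference of 0.04 that did not pass (limma, adjusted p = 0.528) but was negative and passed as lower after median-of-ratios scaling (-0.25, adjusted p = 0.00136), quantile normalization (-0.14, 0.0263), edgeR (-0.20, 0.0191) and DESeq2 (-0.22, 0.0213).

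Of the endothelial genes that Klf2 and Klf4 are known to raise, 5 were tested, and in cisplatin against vehicle 3 rose, 1 fell and 1 missed the threshold, where 56.3% of all genes tested rose and 21.8% fell. Their median was 0.52, against 0.26 over all genes. S1pr1, a receptor for sphingosine phosphate, rose by 1.02, Thbd, the anticoagulant thrombomodulin, by 0.85 and Nos3, the endothelial nitric oxide synthase, by 0.52 on the log2 scale (limma, adjusted p = 9.44e-06, 1.31e-05 and 2.16e-05). Ptgds, a prostaglandin synthase, had -0.49, which missed the threshold (limma, adjusted p = 0.11). Of the genes that Klf2 is known to restrain, 5 were tested, of which 4 rose and 1 fell. Edn1, which encodes a vasoconstrictor peptide, had 12.2, 9.82, 10.5 and 12.5 FPKM in combination kidneys, 10.2, 9.95, 9.58 and 10.8 FPKM in cisplatin kidneys, and 0.58, 0.57, 0.80 and 0.52 FPKM in vehicle kidneys. No library with cisplatin came near the vehicle range. Edn1 rose by 2.78 on the log2 scale in cisplatin against vehicle (limma, adjusted p = 2.92e-12) and the adhesion molecule Vcam1 by 2.31 (limma, adjusted p = 1.27e-06). Of these 5 genes, 3 did not reach 1 FPKM in all 4 vehicle libraries and entered the test through the libraries with cisplatin, so the list's count carries no weight of its own. The members that fell were Tek (-0.29) and Kdr (-0.82), which are also endothelial markers. None of the 10 genes passed in combination against cisplatin, where 2.21% of all genes did.

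The glucocorticoid list, which holds the receptor and genes it is known to raise in many tissues, had 12 genes tested, of which 8 rose, 1 fell and 3 missed the threshold in cisplatin against vehicle, where 56.3% of all genes rose and 21.8% fell. Their median was 1.26, against 0.26 over all genes, and 1 of them, Zbtb16, entered the test through the libraries with cisplatin. Zbtb16, a glucocorticoid-induced zinc finger gene, had 17.4, 16.04, 15.4 and 21.1 FPKM in combination kidneys, 20.1, 18.8, 16.3 and 15.7 FPKM in cisplatin kidneys, and 0.93, 1.30, 2.22 and 1.13 FPKM in vehicle kidneys. It rose by 2.99 on the log2 scale (limma, adjusted p = 5.07e-10), Cebpd rose by 2.44 and Nfkbia by 1.79. The receptor gene Nr3c1 was the member that fell, by 0.20 with overlapping groups (limma, adjusted p = 0.0323). Dusp1 and Tsc22d3 did not pass, and vehicle library 3 was their highest vehicle library. It had 74.41 FPKM for Dusp1, with the others at 33.75 to 39.86 FPKM, and 40.35 FPKM for Tsc22d3, with the others at 21.84 to 30.0 FPKM. That library was also highest of its group for Ddit4 and Zbtb16, but not for Pdk4, Errfi1 or Nr3c1. Its bearing on the calls was not tested. Errfi1, the most abundant of the 3 that did not pass, had -0.04 (limma, adjusted p = 0.744), but passed as lower with edgeR (-0.42, adjusted p = 0.00423). Klf9 and Klf15, both known targets of this receptor, had 0.24 and -1.46 in the same comparison with FPKM as deposited. The sign of Klf9 depended on the scaling or count model. It was negative with median-of-ratios scaling (-0.05) and, on the counts of 10 libraries, with edgeR (-0.14) and DESeq2 (-0.155). With limma on the FPKM of those 10 libraries it was 0.12.

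Around Klf10, a list of ligand, receptor and Smad genes of the transforming growth factor beta route, with Skil, gave 8 tested genes. Tgfb1 was the ligand gene among them. In cisplatin against vehicle 8 of 8 rose, by 0.23 to 1.79 on the log2 scale, where 56.3% of all genes rose. The median of the 8 was 0.86, against 0.26 over all genes, and the smallest rise lay below the latter. This count does not separate genes that drive the route from genes that restrain it. The receptor gene Tgfbr2 had 41.1, 36.4, 38.98 and 40.5 FPKM in combination kidneys, 37.1, 38.2, 33.5 and 36.4 FPKM in cisplatin kidneys, and 14.5, 13.5, 13.8 and 14.1 FPKM in vehicle kidneys. It rose by 1.31 (limma, adjusted p = 9.31e-11), the receptor gene Tgfbr1 rose by 1.09 (limma, adjusted p = 6.30e-09) and Smad3, the signal transducer, by 0.92 (limma, adjusted p = 3.71e-09). Markers of fibroblasts and pericytes summed to 42.52 to 59.88 FPKM in combination kidneys, 39.73 to 89.37 FPKM in cisplatin kidneys and 15.12 to 23.77 FPKM in vehicle kidneys, and 5 of 5 rose. Macrophage markers summed to 156.0 to 169.7 FPKM, 129.2 to 169.5 FPKM and 37.69 to 46.01 FPKM in the same order of groups, with 4 of 5 tested markers higher in cisplatin against vehicle. Cd68 alone had means of 77.4, 64.1 and 1.96 FPKM in that order. Csf1r, the tested marker that did not rise, had means of 5.6, 7.2 and 7.4 FPKM and passed as lower in combination against vehicle. Adgre1 and Cx3cr1 were too low to be tested. Neutrophil markers summed to 19.95 to 34.25 FPKM, 21.83 to 26.62 FPKM and 2.54 to 4.80 FPKM. The 4 of 5 neutrophil markers that passed as higher entered the test through the libraries with cisplatin, and Cxcr2, expressed in all groups, did not pass. No marker of the 3 types was at 0 in all libraries of a group. Such cells are known to express Klf4, Klf6 and Klf10, and their part in the higher levels was not tested. T cells, where Klf2 and Klf13 are well known, had markers summing to 1.44 to 2.21 FPKM in combination kidneys, 1.5 to 2.25 FPKM in cisplatin kidneys and 3.39 to 5.29 FPKM in vehicle kidneys, and none of the 8 passed the filter on low values.

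Klf15 is known from mouse liver and muscle as a driver of amino acid breakdown. Of the enzymes tied to it there, 4 were tested, and in cisplatin against vehicle 3 fell and 1 rose, where 21.8% of all genes fell and 56.3% rose. Their median was -0.74, against 0.26 over all genes. Hpd, an enzyme of tyrosine breakdown, had 6.53, 6.23, 4.52 and 8.18 FPKM in combination kidneys, 13.6, 13.0, 11.7 and 12.4 FPKM in cisplatin kidneys, and 29.0, 37.1, 34.4 and 49.0 FPKM in vehicle kidneys. It fell by 1.47 on the log2 scale in cisplatin against vehicle (limma, adjusted p = 1.05e-06) and fell by a further 0.91 in combination against cisplatin (limma, adjusted p = 0.00517), with no overlap in either. The call in combination against cisplatin was lost with limma on the FPKM of the 10 libraries with counts (-0.85, adjusted p = 0.0622). Gpt, which encodes alanine aminotransferase, had 14.7, 15.1, 14.6 and 16.1 FPKM in combination kidneys, 20.7, 24.3, 26.8 and 27.7 FPKM in cisplatin kidneys, and 15.5, 13.6, 13.1 and 15.4 FPKM in vehicle kidneys. It rose by 0.74 in cisplatin against vehicle (limma, adjusted p = 2.43e-06) and fell by 0.67 in combination against cisplatin (limma, adjusted p = 0.00055), where the combination libraries overlapped with the vehicle libraries. Of the 4 enzymes, these 2 passed as lower in combination against cisplatin, where 1.78% of all genes did. Prodh and Bcat2 did not pass there, and neither did Klf15. The part of Klf15 in the enzyme levels was not tested.

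The breakdown of the branched-chain amino acids leucine, isoleucine and valine showed the same direction as Klf15 in cisplatin against vehicle: of 22 genes tested 21 fell and 1 missed the threshold, where 21.8% of all genes fell, with a median of -0.89 against 0.26 over all genes. Bcat2, the aminotransferase of the first step, fell by 0.85 (limma, adjusted p = 1.98e-07), Acat1, the thiolase of isoleucine and ketone metabolism, fell by 1.84 (limma, adjusted p = 1.30e-09), Pcca, a subunit of propionyl-CoA carboxylase, fell by 1.90 (limma, adjusted p = 8.35e-09) and Auh, of the leucine route, fell by 0.93 (limma, adjusted p = 1.60e-09). Hsd17b10 had 0.06 and did not pass (limma, adjusted p = 0.476). In combination against cisplatin 3 of the 22 passed, all as lower, where 1.78% of all genes passed as lower. These were Ivd, the isovaleryl-CoA dehydrogenase of leucine breakdown (-0.56; limma, adjusted p = 0.00752), Hibch of valine breakdown (-0.40; limma, adjusted p = 0.00317) and Mccc2 of leucine breakdown (-0.38; limma, adjusted p = 0.0313). The Mccc2 call was lost when any of 7 single libraries was left out (vehicle 2, cisplatin 1, 3 or 4, or combination 2, 3 or 4), with adjusted p from 0.0517 to 0.0927, and also without a filter on low values or with only the compared groups in the model. Proximal tubule markers fell in the same comparison with vehicle, as given above, and their part in the lower enzyme levels was not tested.

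**Figure D5:**
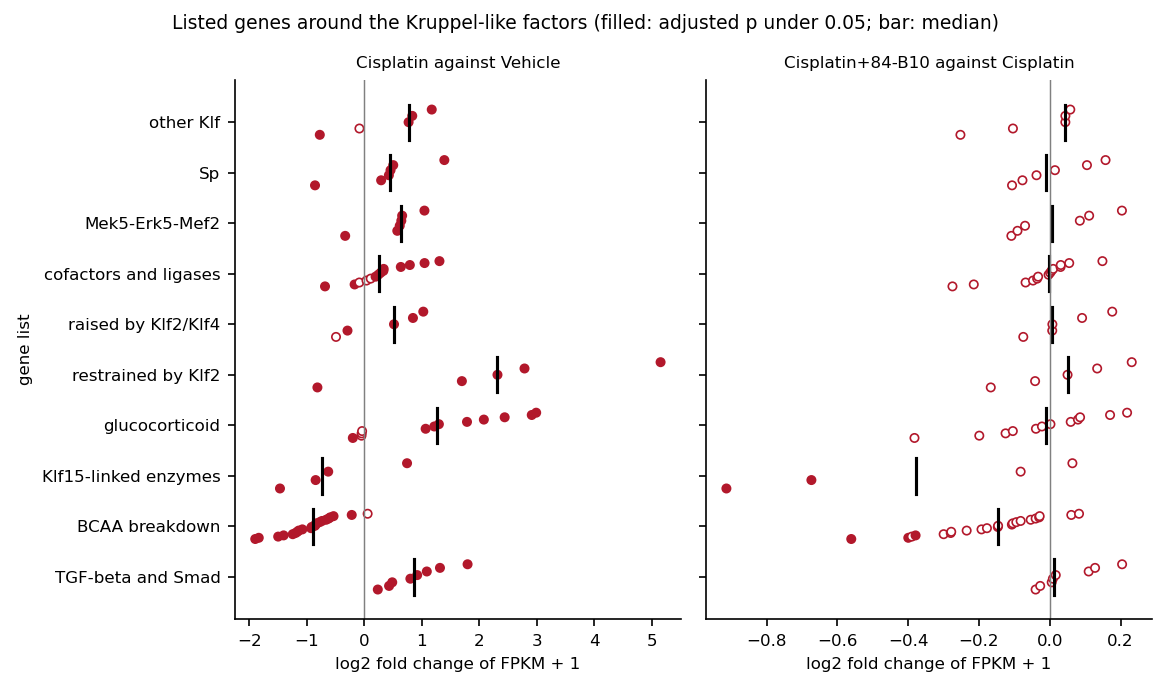
Difference of log2(FPKM + 1) (x axes) of every tested gene in 10 lists around the Kruppel-like factors (y axis), in cisplatin against vehicle (left) and in combination against cisplatin (right, on a narrower axis); filled points passed at an adjusted p under 0.05 and bars are medians. On the left, branched-chain amino acid breakdown has the lowest median, -0.89, and only 5 differences are filled on the right.

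Genes whose profile over the 12 libraries lay closest to a member were found among 8778 genes with a mean of at least 5 FPKM, by the root mean square distance of log2(FPKM + 1) after each gene's vehicle mean was taken away. For Klf6 these were Slc25a24, at a distance of 0.0905 with means of 19.0 FPKM in combination, 18.6 FPKM in cisplatin and 0.94 FPKM in vehicle kidneys, and Myof at 0.0972. The nearest to Klf5 were Mapk6 at 0.0911 and Mdm2 at 0.107, and Mdm2, a target of the tumour suppressor p53, had means of 116 FPKM in combination, 108 FPKM in cisplatin and 16.9 FPKM in vehicle kidneys. Klf5 itself had means of 6.00, 5.43 and 0.11 FPKM in the same order of groups. The pseudocount shrinks its difference, so these genes lie near Klf5 on this scale but not in fold change. Piezo1, a mechanically gated ion channel, lay nearest to Klf4 at 0.0772, followed by the DNA polymerase gene Polk at 0.104. Klf10 was nearest to Nras at 0.155 and Bcam at 0.156. For Klf15, which the naming rule did not cover and which was looked up after its values were seen, these were Tef at 0.163, a clock-linked transcription factor with 36.1 FPKM in combination, 37.8 FPKM in cisplatin and 106 FPKM in vehicle kidneys, and Evc at 0.163. All distances are descriptions over libraries that share 3 group means.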

How the data were processed

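Kidney RNA of 12 mice was sequenced, 4 libraries per group, grouped by the treatment label. The labels call them biological replicates, and the spread among them is what the p-values reflect. Per the submitters' processing notes, HISAT2 2.0.4, Bowtie2 2.2.5 and RSEM 1.2.12 were used, without stated roles. The sources used here do not give the genome build, annotation, kit or strandedness. The authors deposited FPKM in 12 columns that carry the libraries' names, and estimated counts per gene, of which 34.3% of values are not whole. Count columns of 10 libraries are named, per the file headers, and the authors' group means of FPKM match the named columns to within 3.64e-12, which ties the short column names to groups. A block of 14 per-sample columns with a displaced or missing heading was not used. No 2 libraries were identical, and count chi-square over its degrees of freedom was 4.34 or more within groups.

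Values were tested in R 4.3.3 with limma 3.58.1 as log2(FPKM + 1), a pseudocount of 1, with 3 group means, 9 residual degrees of freedom and a mean trend, two-sided. The 12428 genes that reached 1 FPKM in 4 or more libraries entered, and p-values were Benjamini-Hochberg adjusted over all of them within a comparison. Fold changes on this scale understate changes of low genes. Estimated counts were rounded for edgeR 4.0.16 and DESeq2 1.42.0, run as alternatives, and scaling, filter, pseudocount, block and left-out libraries were varied. limma on the FPKM of the 10 libraries with counts was an alternative added after seeing the data. The steps were tested on simulated data.

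The members, gene lists and promoter motifs were chosen with earlier results of these data known. Named genes were all members, every other Klf or Sp gene, per pathway list the 3 passing genes with the largest moderated statistic in cisplatin against vehicle, up to 3 passing in combination against cisplatin, and the most abundant gene that did not pass. Of the genes that this rule names, 1 is not reported here but stays in the counts of its list. Tek, Kdr, Nr3c1, Cxcr2, Map2k5, Wwp1, Smurf2, Cd68, Csf1r, Adgre1, Cx3cr1 and the neighbours of Klf15 were named after their values were seen. The same holds for Aqp2, Skil, Tgfb1, Prodh, Dusp1, Tsc22d3, Ddit4 and Pdk4.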

Additional observations from a re-analysis of the deposited data

Results flagged for a closer look

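In groups of 4 libraries, a library was picked out when its gap to the nearest other library exceeded Dixon's 95% critical value of the range. Of 55 groups tested, 5 were picked out, and chance alone picks about 1 in 20. Klf4 was 3.55 FPKM in vehicle library 3, the highest of its group, where the other 3 lay between 2.41 and 2.49 FPKM; this library is still below every library with cisplatin. Klf7 was 5.12 FPKM in cisplatin library 2 and 1.82 FPKM in vehicle library 3, each the highest of its group. Klf16 was 3.46 FPKM in vehicle library 1, and Sp4 was 1.32 FPKM in combination library 4, each again the highest of 4.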

How the results depend on the processing

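Of the 9 members, 6 to 9 passed in cisplatin against vehicle over 24 alternative analyses, 7 to 8 in combination against vehicle and 0 in combination against cisplatin. Over all genes, 275 passed in combination against cisplatin, 176 when only those groups were fitted and 440 with DESeq2. Leaving out 1 library at a time gave 152 to 291 there (172 without cisplatin library 4, 158 without combination library 2 and 152 without combination library 3), 9302 to 9702 in cisplatin against vehicle and 9475 to 9901 in combination against vehicle, and 8 to 9, 8 and 0 members in cisplatin against vehicle, combination against vehicle and combination against cisplatin.

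Whether the replicate numbers pair the libraries was not settled: deviations of same-numbered libraries correlated at -0.238 to 0.561 (median 0.056), over 0.1 in 3 of 12 pairs, and 6 of 12 libraries matched their own number best. Between cisplatin and combination the same-numbered libraries 1, 2, 3 and 4 correlated at 0.561, 0.249, 0.373 and -0.238, which does not decide pairing there. With the replicate number as a block, 9696 genes passed in cisplatin against vehicle, 9826 in combination against vehicle and 316 in combination against cisplatin, with 9, 8 and 0 members.

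Signs turned as follows, as log2 differences, and the cause was not tested. Klf9 in cisplatin against vehicle was -0.054 after median-of-ratios scaling, -0.143 with edgeR, -0.155 with DESeq2 and -0.137 with edgeR without a filter. In combination against vehicle Klf9 was -0.188 and -0.0102 after median-of-ratios and quantile scaling, -0.172 with edgeR, -0.181 with DESeq2 and -0.167 with unfiltered edgeR. Hdac2 in cisplatin against vehicle was -0.248, -0.144, -0.203, -0.215 and -0.197 under these 5 settings. Hsd17b10 was -0.235 after median-of-ratios scaling, -0.101 with edgeR, -0.113 with DESeq2 and -0.0943 with unfiltered edgeR. Errfi1 was 0.0094 after quantile and 0.0115 after TPM scaling, and -0.121 to 0.0539 with 1 library left out (Hsd17b10 -0.0079 to 0.12), and Sp4 -0.132 after quantile normalization. Klf1 passed as lower after median-of-ratios (-0.29) and quantile scaling (-0.45), and Hsd17b10 after median-of-ratios scaling, and as higher (0.16) with limma on 10 libraries. Hdac2 passed as lower under all 5 settings named for it. Errfi1 passed as lower after median-of-ratios scaling (-0.33), with edgeR (-0.42; -0.417 unfiltered) and with DESeq2 (-0.43), and Ptgds after median-of-ratios (-0.73) and quantile scaling (-0.85) and without cisplatin library 3 (-0.67).

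In combination against cisplatin, where no member passed, Klf10 was -0.0053 after TPM scaling, -0.0146 with edgeR, -0.0109 with DESeq2 and -0.015 with unfiltered edgeR. Klf15 was 0.0071 with edgeR, 0.0095 with DESeq2, 0.0069 with unfiltered edgeR and 0.00036 with limma on 10 libraries, and Klf6 was -0.0047 after quantile normalization. With 1 library left out, Klf10 ran from -0.0579 to 0.103, Klf15 from -0.202 to 0.0979 and Klf6 from -0.031 to 0.0841, and Klf1 in cisplatin against vehicle from -0.165 to 0.00066. Klf5 could not be tested at a mean FPKM of at least 5. Depth limits Klf5 in vehicle kidneys, where it rests on 12 counts in all.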
